A study of Mus musculus with 15 samples.

Results

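The interferon-stimulated genes described here are 37 genes that mouse cells raise when interferon reaches them. They run from the effectors Isg15, Ifit1, Mx1 and Rsad2 to the signalling factors Irf7, Irf9 and Stat2, the guanylate-binding proteins and the PYHIN genes. They were found by gene symbol among the 17029 genes of the DMSO and ibrutinib tables. All 37 were listed in DMSO (16470 genes) and 36 in ibrutinib (16428 genes), all but Ifi205. RNA came from B-cells of leukemic spleens, freed by mechanical disruption. The mice were C57Bl/6, which the paper describes as a cross backcrossed to that strain. The cells were cultured for 24 h with DMSO or with 5 μM ibrutinib, an inhibitor of Bruton's tyrosine kinase. All mice carried Eμ-TCL1, a transgene that drives the TCL1 oncogene from an immunoglobulin enhancer in B-cells, and the Eμ-TCL1;p53R172H/+ mice also carried 1 mutant and 1 wild-type Trp53 allele. In DMSO there were 3 Eμ-TCL1 libraries (replicates 2, 3 and 4) and 5 Eμ-TCL1;p53R172H/+ libraries (replicates 1 to 5). In ibrutinib there were 3 Eμ-TCL1 libraries (replicates 1, 3 and 4) and 4 Eμ-TCL1;p53R172H/+ libraries (replicates 1, 3, 4 and 5). The labels give no age and do not say whether libraries of the same number came from the same animal. No cell sort is named.

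Type I interferons bind the IFNAR receptor, whose kinases JAK1 and TYK2 phosphorylate STAT proteins, STAT2 among them. With IRF9 these form the factor ISGF3, which binds the interferon-stimulated response element (ISRE) near the start of its target genes. Interferon gamma, made mainly by T cells and NK cells, acts through its own receptor and on gamma-activated sites (GAS). Several products feed back on the pathway: IRF7 raises interferon production, and USP18 removes ISG15 from proteins and damps the receptor.

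The response element can be read in the promoters of the genes whose levels follow. RefSeq promoter sequences (GRCm38.p6), from 250 bases before to 50 bases after a transcript start, were matched to 26 of the 37 genes, with 30 promoters. The ISRE was searched as GAAA, any 2 bases and GAAA again, and the gamma-activated site as TTCNNNGAA, on both strands. The ISRE letters stood in 15 of the 30 promoters (50%), against 3.443% of all 32851 promoters, and the GAS letters in 5 (16.67%), against 8.298%. In 1 promoter the matches of both overlapped. One stretch is given for genes described at length, 5′ to 3′ on the gene's strand, with the ISRE letters or their reverse complement in capitals.
Isg15 (minus strand, chr4:156200871-156200900): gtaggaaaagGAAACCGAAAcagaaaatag
Ifit1 (plus strand, chr19:34640794-34640823): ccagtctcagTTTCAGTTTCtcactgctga
Ifit3 (plus strand, chr19:34583397-34583426): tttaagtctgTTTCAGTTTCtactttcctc
Rsad2 (minus strand, chr12:26456553-26456582): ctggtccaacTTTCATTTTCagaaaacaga
Stat2 (plus strand, chr10:128270266-128270295): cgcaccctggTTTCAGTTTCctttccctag
Oas3 (minus strand, chr5:120777715-120777744): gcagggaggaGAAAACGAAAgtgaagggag
Bst2 (minus strand, chr8:71537577-71537606): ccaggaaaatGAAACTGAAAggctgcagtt
Gbp2 (plus strand, chr3:142620594-142620623): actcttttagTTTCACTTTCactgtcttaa
Gbp3 (plus strand, chr3:142559989-142560018): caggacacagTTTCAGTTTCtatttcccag
Ifi203 (minus strand, chr1:173942508-173942537): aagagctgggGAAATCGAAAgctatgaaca
The Ifit1, Ifit3, Stat2 and Gbp3 stretches share the 10 capital letters exactly, and the Bst2 stretch holds their reverse complement. Ifit1, Ifit3, Gbp3 and Bst2 each held another match with different letters, not printed here. For these genes the identity depends on the match that was printed. Isg15 held 3 overlapping matches, and the other 2 begin 6 bases to either side of the printed one. The promoters of Irf7, Irf9, Oasl1 and Oasl2 held neither motif in these 300 bases. A match shows only that the letters are present.

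The libraries differed in their cell type markers, and in 3 of them the interferon-stimulated genes were also high. The values are read counts scaled by the authors by an effective library size, so their sums (756600 to 1360000 per library) do not show the sequencing depth. B-cell markers summed to between 3572 and 6467 in 5 of the 8 DMSO libraries, but only to 286.6 (replicate 1) and 283.2 (replicate 2) in a pair of Eμ-TCL1;p53R172H/+ libraries and to 636.2 in Eμ-TCL1 replicate 2. In Eμ-TCL1;p53R172H/+ replicates 1 and 2, T-cell markers summed to 3115 and 3903 (252.2 to 708.5 elsewhere) and NK-cell markers to 603.0 and 714.6 (10.5 to 51.9 elsewhere). Eμ-TCL1 replicate 2 had a myeloid marker sum of 30160 (148.5 to 1016 elsewhere), led by S100a9 and S100a8, and an erythroid sum of 17900 (9.6 to 72.4 elsewhere). In ibrutinib, Eμ-TCL1;p53R172H/+ replicate 1 had the lowest B-cell sum (70.2) and the highest T-cell (2051) and NK-cell (267.2) sums of the 7 libraries, and Eμ-TCL1 replicate 1 had a myeloid sum of 21540 (276.9 to 1258 elsewhere). No B-cell or T-cell marker was at 0 in any library. The markers of plasmacytoid dendritic cells, which make much type I interferon, summed to between 11.8 and 150.9. In these 5 of the 15 libraries B-cell markers were low for the labelled cell type, and the genotype comparisons of the interferon-stimulated genes are given with and without them. The 3 of Eμ-TCL1;p53R172H/+, which had the highest T-cell and NK-cell sums of their tables, are called T/NK-rich. The name refers to these sums only. Their NK-cell sums were led by Eomes and Nkg7, and the NK-cell marker Ncr1 was at 0.0 in all 3. Elsewhere Ncr1 was at 0.1 to 0.9 in DMSO and at 0.0 to 0.6 in ibrutinib. The remaining libraries are called B-cell-rich: 2 Eμ-TCL1 and 3 Eμ-TCL1;p53R172H/+ per table. Among them, Eμ-TCL1;p53R172H/+ replicate 3 in ibrutinib still had a low B-cell sum (628.7) and a high T-cell sum (1277), while its members stood at the 48.4 percentile. The 2 myeloid-rich Eμ-TCL1 libraries stood at 50.5 and 48.0. Sex also moved with genotype: the female transcript Xist was at 868.7 to 1992 in all 6 Eμ-TCL1 libraries, whereas the Y-linked Ddx3y was at 75.1 to 177.3 in 3 of 5 DMSO and 3 of 4 ibrutinib Eμ-TCL1;p53R172H/+ libraries (replicates 1, 2 and 4, and 1, 3 and 4) and at most 0.1 in the rest, and the part of sex in the genotype differences was not tested. The libraries numbered 3 in this genotype differed in sex between the tables, with Xist at 1491 in DMSO and 1.0 in ibrutinib.

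**Figure D1:**
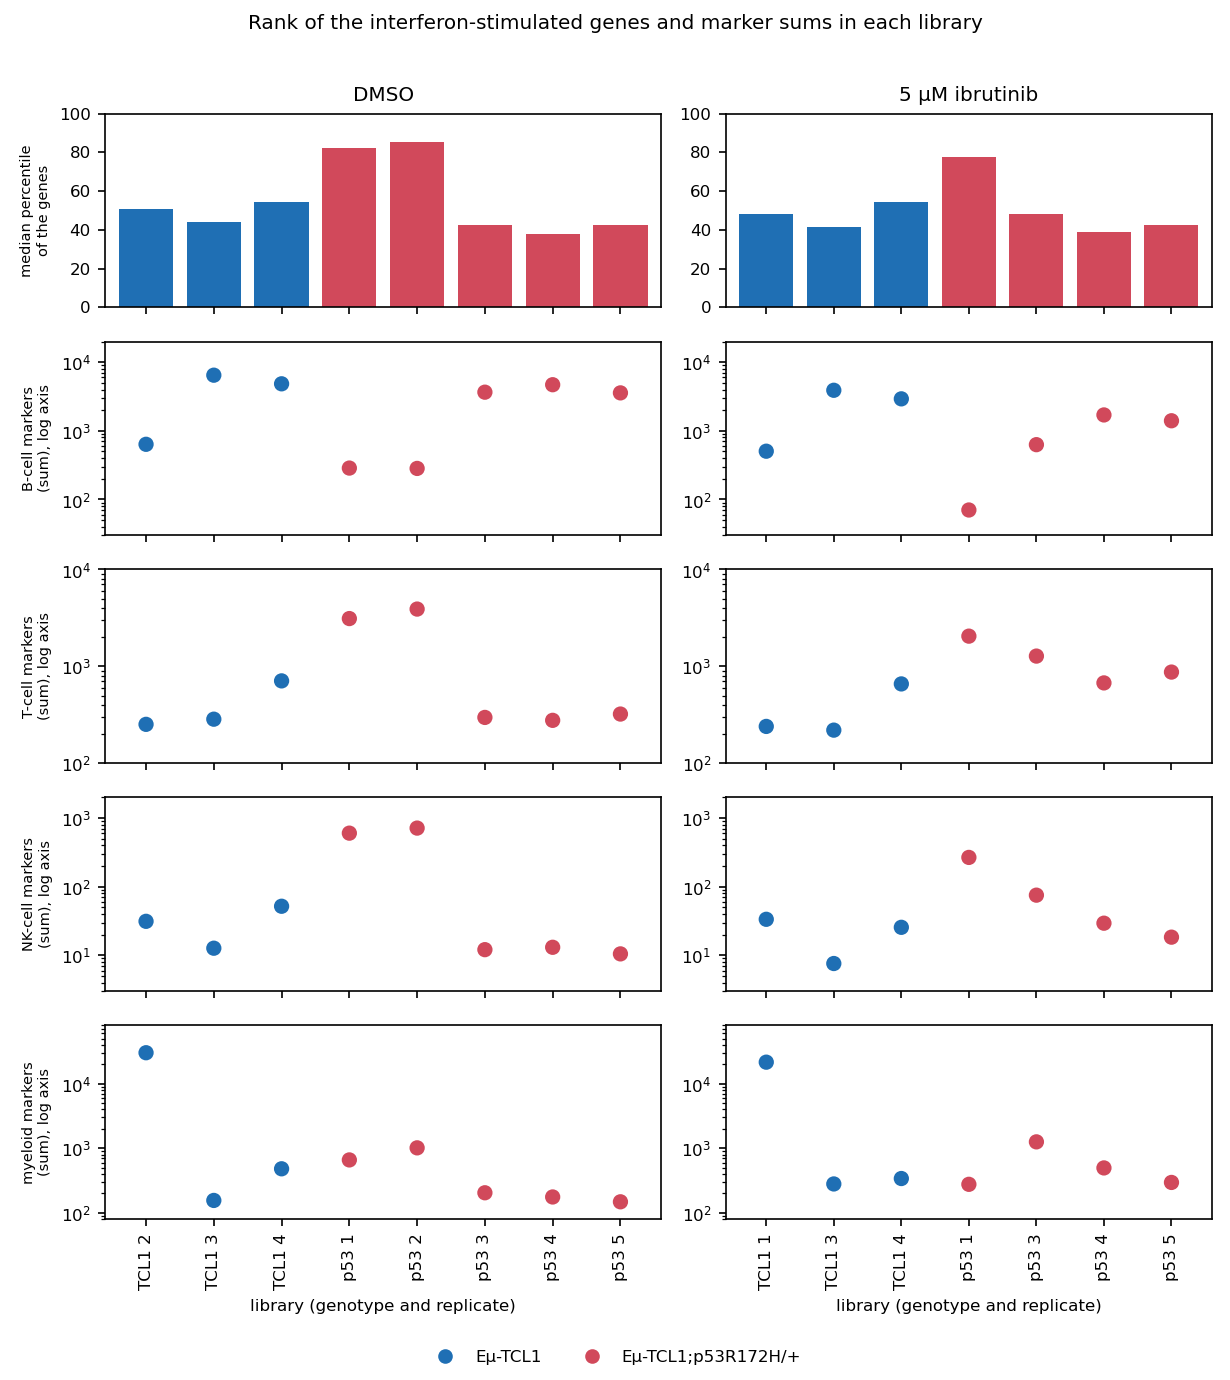
Each column is a library, with TCL1 for Eμ-TCL1 and p53 for Eμ-TCL1;p53R172H/+ and the replicate number. The top row plots the median percentile of the 36 genes of both tables among all genes of the library, and the others the summed value of B-cell, T-cell, NK-cell and myeloid markers on log axes; the 3 libraries with percentiles of 77.9 to 85.1 are those with the lowest B-cell sums of each table.

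The T/NK-rich Eμ-TCL1;p53R172H/+ libraries held the highest levels of most interferon-stimulated genes. In DMSO, replicates 1 and 2 both lay above every other library in 27 of the 37 genes (73.0%), whereas 18.0% of all genes did so, and in none of the 37 did both lie below every other library. Their mean was 4.40 times the median of the other 6 libraries for the median member, against 1.0 over all genes. In ibrutinib, replicate 1 was the highest library in 24 of 36 genes (66.7%, against 21.9% of all genes), with a median ratio of 2.87 to the other 6. Ranked within its own library, the median member stood at the 82.0 and 85.1 percentile in DMSO replicates 1 and 2 and at 77.9 in ibrutinib replicate 1. In the other 12 libraries it stood between 38.1 and 54.5. In the same DMSO libraries, 11 of 12 T-cell markers and 6 of 7 NK-cell markers (all but Ncr1) were above all other libraries and all 12 B-cell markers below. Here and throughout, fewer cells of a type and less RNA per cell cannot be told apart, and the part of the T cells and NK cells in these levels was not tested.

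The size of the difference varied widely between members. Ratios of the mean of DMSO replicates 1 and 2 to the median of the others were 86.0 for Ifit3, 85.3 for Rtp4, 31.4 for Irf7, 23.3 for Oas3, 19.2 for Oasl2 and 19.1 for Zbp1. They were near 1.8 for Stat2 (1.81), Isg15 (1.85) and Ddx58 (1.75), and 1.03 for Mx2. Mnda had a ratio of 0.081 and Ifi204 of 0.60, and Ifi205 and Ifi44 were listed at 0.0 in these libraries. Both libraries were above all others in 9 of the 15 genes with ISRE letters in a promoter (median ratio 4.12) and in 10 of the 11 without (4.54).

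**Figure D2:**
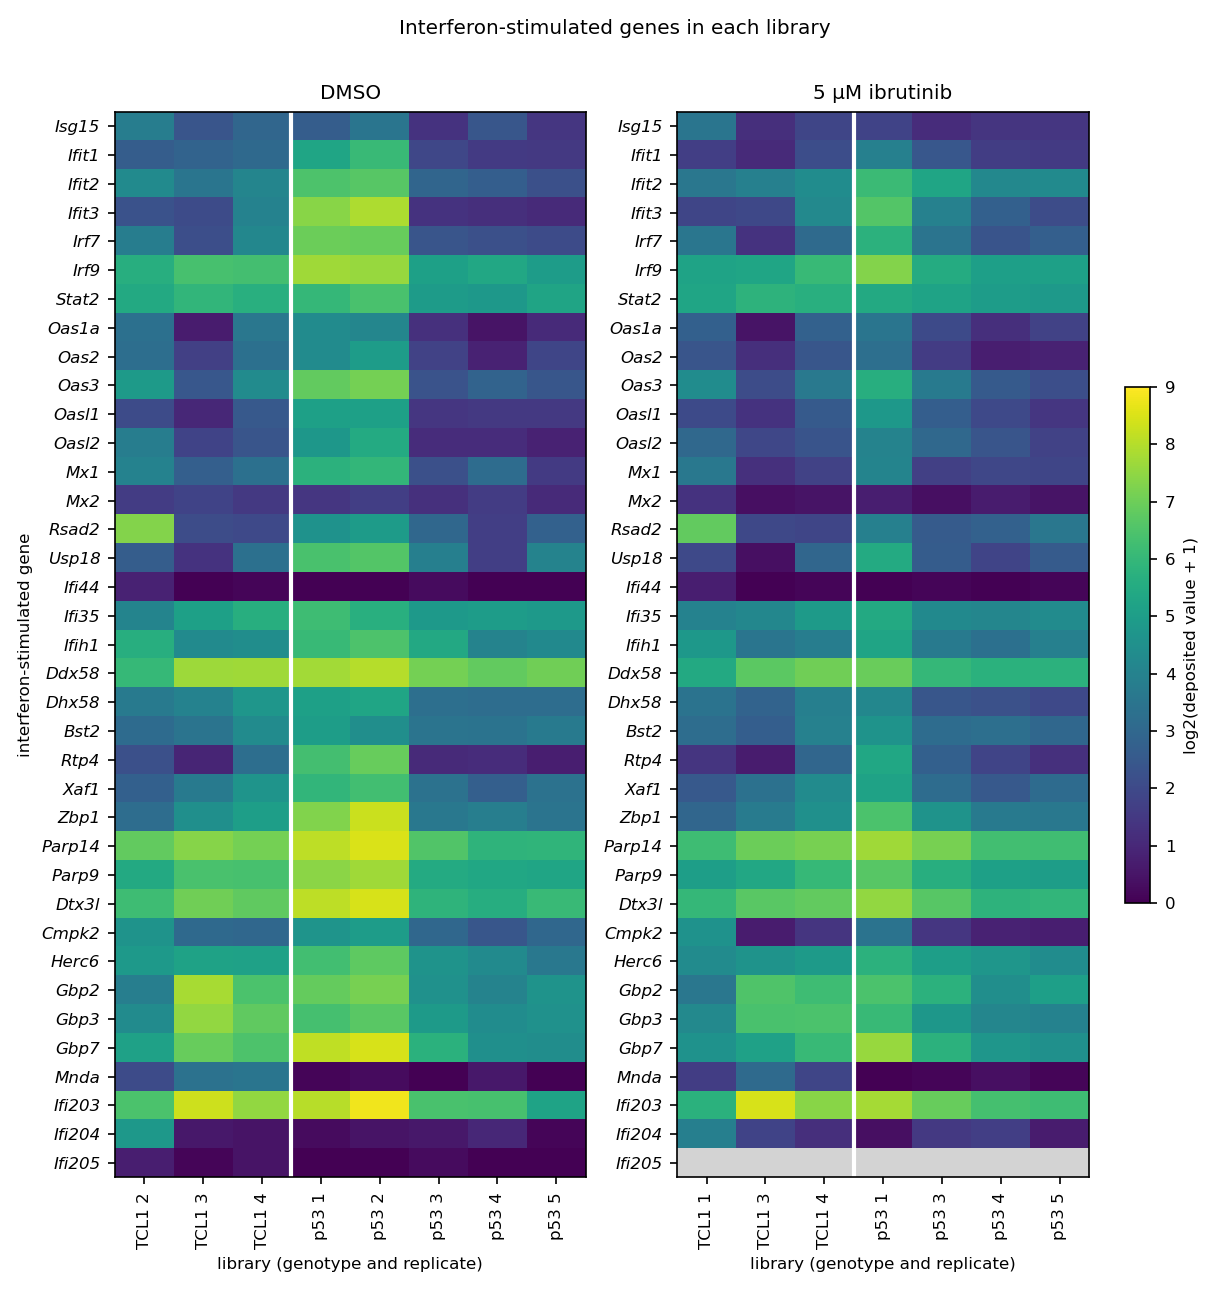
Rows are the 37 genes, columns the libraries of each table (TCL1, Eμ-TCL1; p53, Eμ-TCL1;p53R172H/+; a white line divides them), and colour is log2(value + 1), with grey for a gene that is not listed. Eμ-TCL1;p53R172H/+ replicates 1 and 2 in DMSO and replicate 1 in ibrutinib are the brightest columns in most rows, and Rsad2 is brightest in Eμ-TCL1 replicate 2 in DMSO and replicate 1 in ibrutinib.

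The first comparison asks how the genes differ between leukemias with and without mutant p53 in vehicle. With all libraries, no interferon-stimulated gene passed the threshold: 0 of 37 had an adjusted p under 0.05 in limma, against 0.0121% of all genes (2 of 16470). At an unadjusted p under 0.05 there were 2 members, against 8.17% of all genes, both lower in Eμ-TCL1;p53R172H/+ (Mnda and Ifi205). The log2 change, taken on log2(value + 1) with positive values for a higher level in Eμ-TCL1;p53R172H/+, was above 0 in 22 members and below 0 in 15 (below 0 in 46.7% of all genes), with a median of 0.06 (0.04 over all genes). The genotypes did not overlap in 1 member, Mnda, against 6.45% of all genes.

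Among the signalling factors, Irf7 (chromosome 7 of GRCm38, 141262706 to 141266481) amplifies interferon production. In Eμ-TCL1;p53R172H/+ replicates 1 to 5 it was at 125.1, 119.7, 4.2, 3.6 and 3.2, and in Eμ-TCL1 replicates 2, 3 and 4 at 13.2, 3.5 and 16.9. The 2 T/NK-rich libraries were thus far above every other library, while replicates 3 to 5 lay within or just under the Eμ-TCL1 range. Its log2 change was 0.72 (standard error, SE, 1.37, adjusted p = 0.863), well inside the spread between libraries. Stat2, a subunit of ISGF3 (chromosome 10, 128270559 to 128292849), varied less than Irf7, at 62.5, 83.8, 29.7, 26.7 and 37.1 in Eμ-TCL1;p53R172H/+ and 43.5, 59.8 and 50 in Eμ-TCL1. The Eμ-TCL1 libraries lay between the high and the low Eμ-TCL1;p53R172H/+ libraries, and the log2 change was -0.22 (SE 0.39, adjusted p = 0.855). Irf9, the subunit of ISGF3 that binds DNA, had the same order, with 211.4 and 196.5 in replicates 1 and 2 and between 30.8 and 41.2 in replicates 3 to 5. Its Eμ-TCL1 values lay between 48.6 and 82.8.

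The IFIT genes repeated this order. Ifit1 (chromosome 19, 34640871 to 34650009), which binds foreign RNA ends and blocks their translation, was at 38.5, 68.1, 2.8, 1.9 and 1.8 in Eμ-TCL1;p53R172H/+ replicates 1 to 5 and at 5.3, 6.2 and 7.5 in Eμ-TCL1. Every Eμ-TCL1 library lay above replicates 3 to 5 and below replicates 1 and 2, and the log2 change was 0.41 (SE 1.15, adjusted p = 0.911). Ifit3 (chromosome 19, 34583531 to 34588731), a partner of Ifit1, ran from 1.1 to 234.2, the widest range of all members on log2(value + 1). It was at 170.0, 234.2, 1.5, 1.3 and 1.1 in Eμ-TCL1;p53R172H/+ and at 3.8, 3.2 and 15 in Eμ-TCL1 (log2 change 1.0, SE 1.83, adjusted p = 0.857). Ifit2 lay between 3.6 and 6.6 in replicates 3 to 5 and between 10.2 and 18.6 in Eμ-TCL1, with 89.4 and 100 in replicates 1 and 2.

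Most Mx and OAS genes were lower outside the T/NK-rich libraries. Mx1 (chromosome 16, 97447035 to 97462907), a gene of the Mx GTPase family, was at 54.7, 60.7, 3.6, 8.1 and 1.9 in Eμ-TCL1;p53R172H/+ and at 14.9, 5.6 and 9.1 in Eμ-TCL1. Replicates 1 and 2 were far above the rest, among which the genotypes overlapped. Oasl2 (chromosome 5, 114896936 to 114912234), an OAS-like protein, was at 26.4, 44.8, 1.2, 1.2 and 0.8 in Eμ-TCL1;p53R172H/+ and at 13.2, 2.5 and 4.2 in Eμ-TCL1, where replicate 2 was highest. Oasl1, a relative that restrains Irf7 translation, was at 33.3, 33.7, 1.7, 1.8 and 1.8 and at 3.2, 1.0 and 4.7. Its log2 change was 1.06 (SE 1.06, adjusted p = 0.729). Oas1a, Oas2 and Oas3, which make the activator of RNase L, reached 19.4, 30.1 and 138.4 in replicates 1 and 2 and at most 10.8, 9.0 and 28.9 elsewhere. Mx2 stayed between 1.1 and 2.5 in all 8 libraries. The Oas1 genes are close copies of each other, so reads counted for Oas1a may be shared with them.

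Isg15 and its protease Usp18 did not keep the same order. Isg15 (chromosome 4, 156199424 to 156200818), a ubiquitin-like protein, was at 5.3, 10.4, 1.5, 4.3 and 1.7 in Eμ-TCL1;p53R172H/+ and highest, at 13.2, in the myeloid-rich Eμ-TCL1 replicate 2, with 4.2 and 6.8 in replicates 3 and 4. Its log2 change was -0.79 (SE 0.57, adjusted p = 0.658) and its ranges overlapped. Usp18 (chromosome 6, 121245906 to 121270917) was at 84.0, 95.8, 13.6, 2.2 and 15.4 in Eμ-TCL1;p53R172H/+ and at 5.3, 1.5 and 8.9 in Eμ-TCL1. Of the members above 0 it had the lowest p (log2 change 2.09, SE 1.10, adjusted p = 0.645), and 4 of 5 Eμ-TCL1;p53R172H/+ libraries lay above every Eμ-TCL1 library. Rsad2 (viperin, chromosome 12, 26442746 to 26456452), which makes a chain-terminating nucleotide, was highest in Eμ-TCL1 replicate 2 at 161.8. It was at 3.3 and 3.0 in Eμ-TCL1 replicates 3 and 4 and at 23.2, 29.9, 7.1, 2.2 and 5.9 in Eμ-TCL1;p53R172H/+. Its log2 change of -0.41 (SE 1.30, adjusted p = 0.922) rested on that library and was 1.35 without it. Its neighbour Cmpk2, also a nucleotide enzyme, reached 23.7 in that library against 7.4 and 7.0 in the other Eμ-TCL1 libraries.

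Several sensors and membrane proteins were also highest in the T/NK-rich libraries. Zbp1 (chromosome 2, 173206612 to 173218923), a sensor of Z-form nucleic acid, was at 154.8, 311.9, 11.1, 13.4 and 9.9 in Eμ-TCL1;p53R172H/+ and at 8.3, 21.1 and 31.7 in Eμ-TCL1 (log2 change 1.05, SE 1.22, adjusted p = 0.768). Ddx58, which encodes the RNA sensor RIG-I, had the highest median level per kilobase of exon among the members over all 8 DMSO libraries (24.3, with exon lengths of GENCODE M21), a rank that depends on the mix of genotypes. It was at 213.8, 254.5, 138.3, 113.0 and 130.1, and at 63.8, 204.2 and 207.6 in Eμ-TCL1, where the low value is the myeloid-rich library. Bst2 (tetherin, chromosome 8, 71534255 to 71537456), which holds budding virus at the cell surface, was at 31.1, 21, 9.9, 9.7 and 11.7 and at 7.8, 10 and 19.4. Rtp4, a chaperone of receptors, reached 77.5 and 118.8 in replicates 1 and 2, lay between 0.7 and 1.2 in replicates 3 to 5 and was at 3.6, 0.9 and 8.5 in Eμ-TCL1. Parp14, Parp9 and its partner Dtx3l, with the HERC ligase Herc6, lay above all other libraries in both replicates 1 and 2.

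The guanylate-binding proteins, GTPases that attack pathogen vacuoles, and the PYHIN gene Ifi203 were higher in each of Eμ-TCL1 replicates 3 and 4 than in any of Eμ-TCL1;p53R172H/+ replicates 3 to 5. Gbp2 (chromosome 3, 142620602 to 142638008) was at 116.0, 140.5, 22.4, 15.2 and 23.4 in Eμ-TCL1;p53R172H/+ and at 13.5, 227.0 and 85.5 in Eμ-TCL1. Both genotypes thus held high and low libraries, with a log2 change of -0.60 (SE 1.03, adjusted p = 0.847). Gbp3 was at 81.3, 102.8, 28.7, 19.7 and 22.2 and at 19.2, 187.4 and 110.2. Ifi203 (chromosome 1, 173920407 to 173942672), a PYHIN protein, was at 262.2, 442.0, 84.9, 81.4 and 36.1 and at 86.1, 319.7 and 183.1 (log2 change -0.46, SE 0.81, adjusted p = 0.849).

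Mnda was low in the T/NK-rich libraries too. In the annotation this gene (ENSMUSG00000026536, chromosome 1, 173896345 to 173913046) is now named Ifi211, a PYHIN gene. It was at 0.1, 0.2, 0.0, 0.5 and 0.0 in Eμ-TCL1;p53R172H/+ and at 3.2, 9.6 and 10.2 in Eμ-TCL1. Every Eμ-TCL1 library was above every Eμ-TCL1;p53R172H/+ library. The means were 7.67 ± 3.88 (SD, n = 3) and 0.16 ± 0.21 (SD, n = 5), and the log2 change of -2.79 (SE 0.36) missed the threshold over all genes (adjusted p = 0.065, limma). A two-sided exact permutation test of the values gave p = 0.0179, the smallest that 56 splits allow. This value restates the absence of overlap and adds nothing to it. The genotypes overlapped in its relatives on chromosome 1. Ifi204 (173747293 to 173766943), a DNA sensor, was at 26.9 in the myeloid-rich Eμ-TCL1 replicate 2 and between 0.1 and 1.0 in the other 7 libraries. Ifi205 (174011998 to 174031810) was at 0.7, 0.1 and 0.4 in Eμ-TCL1 and at 0.0 in 4 of 5 Eμ-TCL1;p53R172H/+ libraries, with 0.2 in the fifth (adjusted p = 0.608), and Ifi44 on chromosome 3 was at most 0.8. PYHIN genes resemble each other, so reads may have been split between copies.

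**Figure D3:**
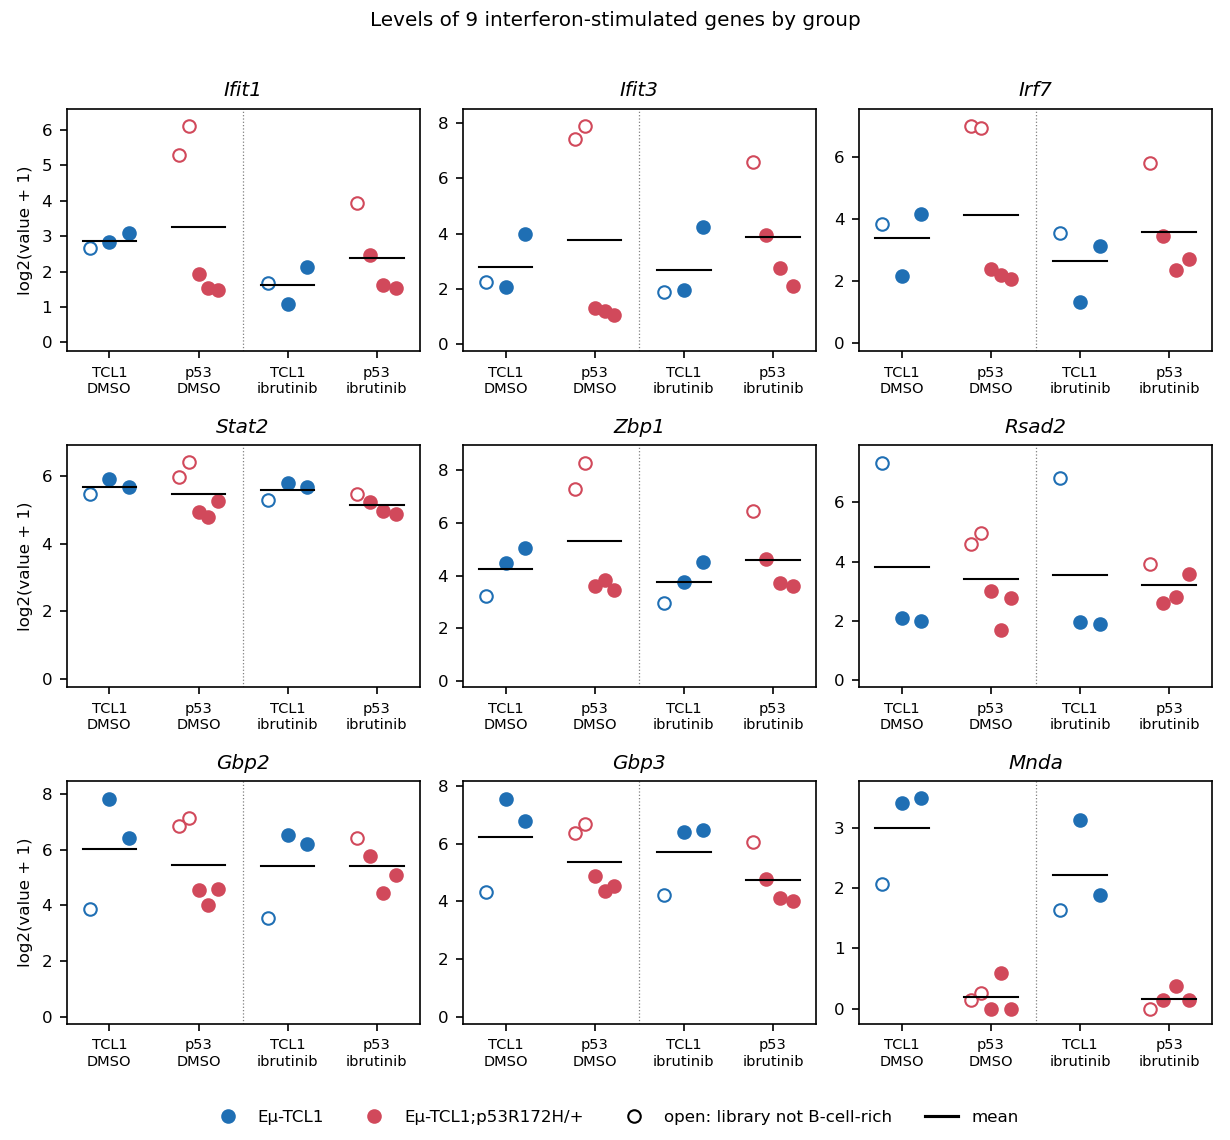
For 9 genes, each point is the log2(value + 1) of 1 library, in 4 groups by genotype and treatment (TCL1, Eμ-TCL1; p53, Eμ-TCL1;p53R172H/+), with the mean as a line and libraries that are not B-cell-rich as open points; the tables of the treatments were scaled separately. Mnda separates the genotypes in both tables, whereas for Ifit1, Ifit3, Irf7 and Zbp1 the highest points of Eμ-TCL1;p53R172H/+, and for Rsad2 those of Eμ-TCL1, are open.

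Within the B-cell-rich libraries most members were lower in Eμ-TCL1;p53R172H/+. With 2 Eμ-TCL1 and 3 Eμ-TCL1;p53R172H/+ DMSO libraries, 32 of 37 members were lower in Eμ-TCL1;p53R172H/+ (49.8% of all genes) and the median log2 change was -1.01 (0.00 over all genes). At an unadjusted p under 0.05 there were 18 members, all lower, against 17.1% of all genes in either direction. None passed adjustment (0.0729% of all genes did), the lowest adjusted p being 0.059 for Mnda. The genotypes did not overlap in 20 members, all lower in Eμ-TCL1;p53R172H/+, against 16.2% of all genes lower without overlap and 32.7% in either direction. The low count of libraries and their choice by B-cell and myeloid markers limit these values.

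The 4 largest log2 changes there were those of Mnda, Gbp2, Gbp3 and Ifi203. Eμ-TCL1 was higher than Eμ-TCL1;p53R172H/+ 7.68-fold in mean Gbp2 (log2 change -2.74, SE 0.48, adjusted p = 0.119), 6.32-fold in Gbp3 (-2.58, SE 0.30, adjusted p = 0.085), 3.27-fold in Gbp7 and 3.73-fold in Ifi203 (-1.92, SE 0.49, adjusted p = 0.185). Gbp3, Irf9 and the other genes outside the naming rule were chosen after their values were seen. For Mnda the ratio was 59.4 (log2 change -3.25, SE 0.24), on values of at most 0.5 in Eμ-TCL1;p53R172H/+. The ratios were 7.0 for Ifit3, 3.16 for Ifit1, 3.14 for Oasl2, 2.54 for Ifit2, 2.30 for Irf9, 2.30 for Zbp1 and 1.76 for Stat2. In all 3 signalling factors, all 5 OAS genes, all 4 genes of the PARP, E3 ligase and HERC group and all 3 guanylate-binding proteins the log2 change was below 0. Those above 0 were Usp18 (0.88, SE 1.01), Rsad2 (0.44, SE 0.47), Ifih1, Ifi44 and Ifi204. Beside this, T-cell markers summed to 285.1 and 708.5 in the 2 Eμ-TCL1 libraries and to 277.4, 297.3 and 322.1 in the 3 Eμ-TCL1;p53R172H/+ libraries, and NK-cell markers to 12.7 and 51.9 and to 10.5, 12.1 and 13.1. Their part in the difference was not tested.

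**Figure D4:**
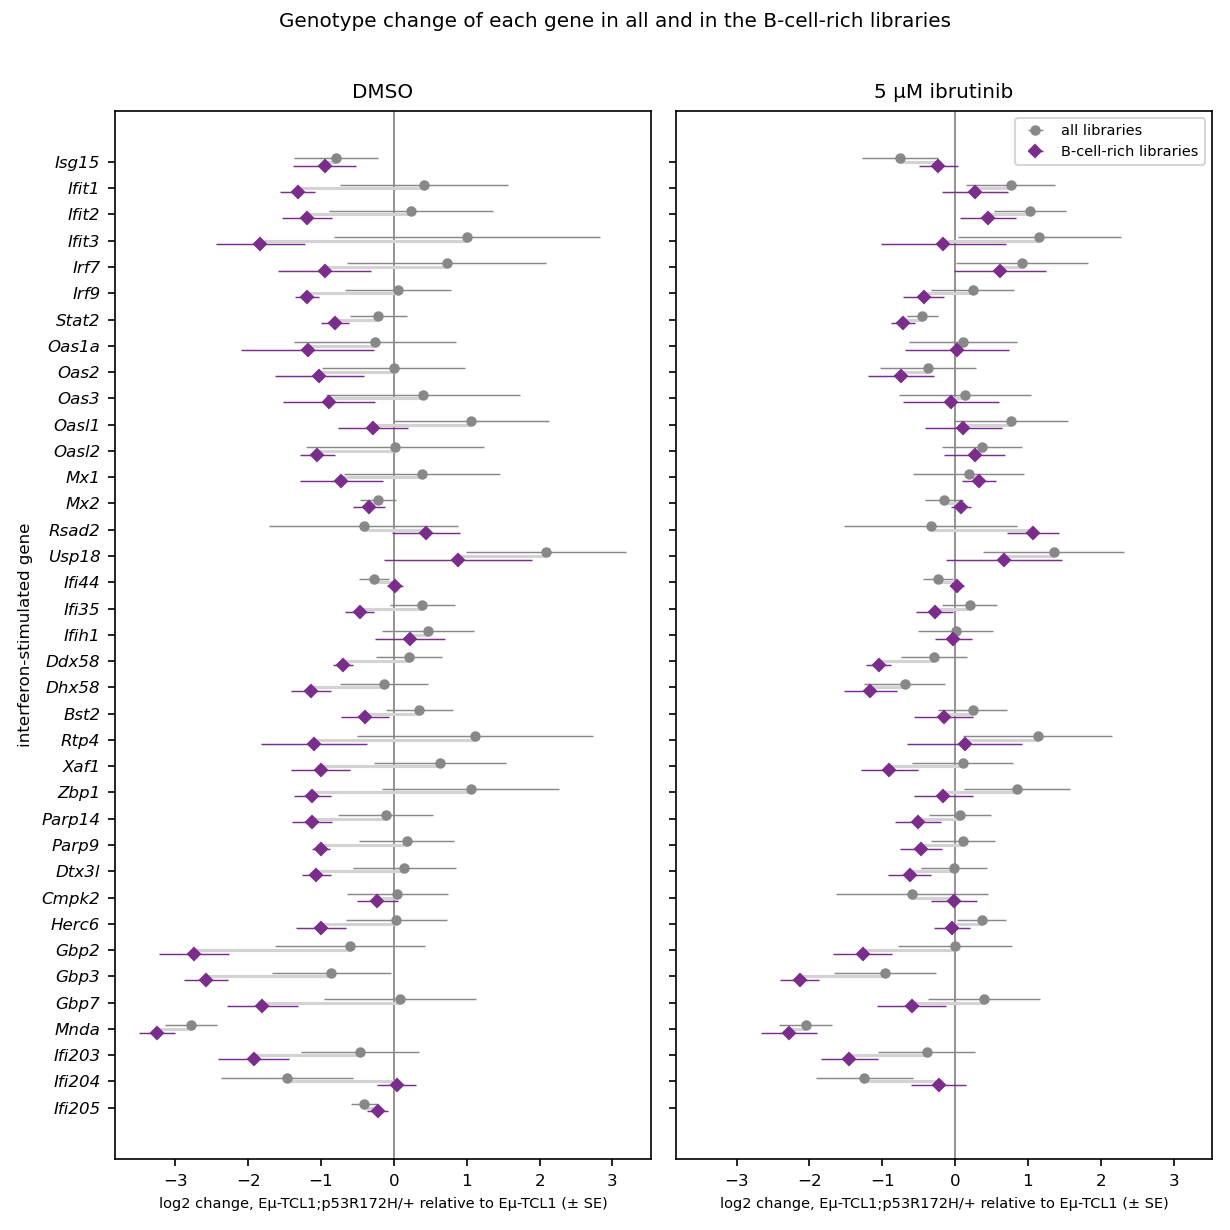
Each row is a gene, and the horizontal axis is its log2 change in Eμ-TCL1;p53R172H/+ relative to Eμ-TCL1 on log2(value + 1), with SEs, in all libraries (grey circles) and in the B-cell-rich libraries (purple diamonds). In DMSO the diamonds lie below 0 for 32 of 37 genes, with a median of -1.01, and in ibrutinib for 24 of 36, with a median of -0.16.

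The second comparison asks the same under ibrutinib, which blocks signalling from the B-cell receptor. No member passed the threshold (0 of 36, against 0.0% of all genes), and 1, Mnda, had an unadjusted p under 0.05 (12.0% of all genes). The log2 change was above 0 in 22 members and below 0 in 14 (54.4% of all genes), with a median of 0.11 (-0.05 over all genes). Mnda was again the member whose genotypes did not overlap (12.7% of all genes did not), at 0.0, 0.1, 0.3 and 0.1 in Eμ-TCL1;p53R172H/+ replicates 1, 3, 4 and 5 and at 2.1, 7.7 and 2.7 in Eμ-TCL1 replicates 1, 3 and 4. Its log2 change was -2.05 (SE 0.36, adjusted p = 0.165), with p = 0.0286 in the two-sided exact permutation test, the smallest that 35 splits allow. That permutation value again only restates the absence of overlap.

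Under ibrutinib, Eμ-TCL1;p53R172H/+ replicate 1 was the high library. Ifit3 was at 95.6 there, at 14.6, 5.8 and 3.3 in replicates 3, 4 and 5, and at 2.7, 2.9 and 18 in Eμ-TCL1. Irf7 was at 54.6 against 9.9, 4.1 and 5.6, and at 10.6, 1.5 and 7.7 in Eμ-TCL1. Zbp1 was at 86.5 against 23.4, 12.1 and 11.1, and at 6.8, 12.5 and 21.8. Eμ-TCL1;p53R172H/+ replicate 3 was second in the group for all 3 genes, and was second also in T-cell and NK-cell marker sums (1277 and 75.3). Of the members above 0, the lowest p-values were those of Ifit2 (68.7, 37.8, 17.3 and 19 against 10.8, 14.2 and 19.6; log2 change 1.03, SE 0.49, adjusted p = 0.453), Usp18 (44.2, 5.1, 2.6 and 5.0 against 3.0, 0.3 and 6.8; log2 change 1.35, SE 0.96, adjusted p = 0.575) and Ifit1 (14.3, 4.5, 2.1 and 1.9 against 2.2, 1.1 and 3.4; log2 change 0.76, SE 0.61, adjusted p = 0.609). In each the genotypes overlapped.

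Among members lower in Eμ-TCL1;p53R172H/+ under ibrutinib, Stat2 was at 43.6, 36.6, 30.6 and 28.5 against 38.0, 54.9 and 50.5 in Eμ-TCL1 (log2 change -0.45, SE 0.21, adjusted p = 0.447). Only the T/NK-rich Eμ-TCL1;p53R172H/+ library reached the Eμ-TCL1 range, and without it the myeloid-rich Eμ-TCL1 library, at 38.0, was still above the rest. Ifi204 was at 13.8 in myeloid-rich Eμ-TCL1 replicate 1, at 2.5 and 1.3 in the others and between 0.3 and 2.2 in Eμ-TCL1;p53R172H/+ (log2 change -1.24, SE 0.66, adjusted p = 0.494). Rsad2 was likewise highest in that Eμ-TCL1 library, at 112.4, with 2.9 and 2.7 in the others and 14.1, 5.0, 6.0 and 11 in Eμ-TCL1;p53R172H/+ (log2 change -0.34, SE 1.18, adjusted p = 0.915). Isg15 was at 10.3 there, at 1.3 and 2.7 in the other Eμ-TCL1 libraries and between 1.2 and 2.5 in Eμ-TCL1;p53R172H/+. Gbp2 was at 85.8, 53.7, 20.7 and 32.8 against 10.8, 90.9 and 72.9 (log2 change 0.00, SE 0.78, adjusted p = 0.999), and Gbp3 at 65.4, 26.4, 16.4 and 15 against 17.7, 83.7 and 86.9 (log2 change -0.96, SE 0.70, adjusted p = 0.581). The remaining named effectors stayed low: Oasl2 between 2.4 and 15.1, Mx1 between 1.4 and 15.8 and Bst2 between 5.5 and 23.5, each highest in Eμ-TCL1;p53R172H/+ replicate 1. Ifi203 was at 220.9, 118.0, 80.8 and 72.8 against 52.4, 354.0 and 167.6 (log2 change -0.39, SE 0.66, adjusted p = 0.808).

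Under ibrutinib the B-cell marker sums of the B-cell-rich libraries themselves separated the genotypes, at 3898 and 2924 in Eμ-TCL1 and 628.7, 1704 and 1402 in Eμ-TCL1;p53R172H/+. In these libraries, 24 of 36 members were lower in Eμ-TCL1;p53R172H/+ (51.3% of all genes), with a median log2 change of -0.16 (-0.01 over all genes). At an unadjusted p under 0.05 there were 8 members (22.2%, against 17.7% of all genes) and none passed adjustment (0.0% of all genes), the lowest adjusted p being 0.080 for Gbp3. This set of libraries was chosen after seeing the data. With only the library poor in B-cell transcripts left out, as planned, 27 members were lower, with a median of -0.31. There 3 members had an unadjusted p under 0.05 in limma (8.33%, against 9.74% of all genes). In the B-cell-rich libraries Gbp3 was 4.43-fold higher in Eμ-TCL1 (log2 change -2.13, SE 0.27), Ifi203 2.88-fold (-1.45, SE 0.39), Gbp2 2.29-fold (-1.27, SE 0.41), Ddx58 2.09-fold and Stat2 1.65-fold (-0.71, SE 0.16). The genotypes did not overlap in 10 of 36 members, a smaller share than the 34.0% of all genes. In 9 of the 36 members Eμ-TCL1;p53R172H/+ was lower without overlap, a somewhat larger share than the 18.7% of all genes. These were Stat2, Ddx58, Dhx58, Xaf1, Dtx3l, Gbp2, Gbp3, Mnda and Ifi203. All 9 were among the 20 members lower without overlap in DMSO (100% of the ibrutinib list and 45% of the DMSO list), where over all 15869 genes of both tables the shares were 40.8% and 47.0%. The libraries of the tables may come from the same animals, so the lists are not independent. Rsad2 went the other way, at 5.0, 6.0 and 11 in Eμ-TCL1;p53R172H/+ and 2.9 and 2.7 in Eμ-TCL1 (log2 change 1.07, SE 0.35, adjusted p = 0.231). By contrast with DMSO, the IFIT genes did not separate: Ifit3 was at 14.6, 5.8 and 3.3 against 2.9 and 18.0, and Ifit1 at 4.5, 2.1 and 1.9 against 1.1 and 3.4. T-cell markers summed to 1277, 675.1 and 873.4 in these 3 Eμ-TCL1;p53R172H/+ libraries and to 219.8 and 659.2 in Eμ-TCL1, and the part of B-cell and T-cell content in these levels was not tested.

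Whether the genotypes differ more under ibrutinib than in DMSO was tested as an interaction over all 15 libraries, on log2(value + 1). A scaling shift between tables cancels in it where values lie well above 1, but not fully for low values such as those of Mnda. No member passed (0 of 36, against 0.0% of 15869 genes) and none had an unadjusted p under 0.05 (0.523% of all genes), with 17 members below 0 (59.1% of all genes) and a median of 0.03 (-0.07 over all genes). The lowest p-values belonged to Mnda (interaction 0.74, SE 0.52) and Ddx58 (-0.50, SE 0.68), both at an adjusted p of 1.0 in limma. In the B-cell-rich libraries the interaction was above 0 in 31 members and below 0 in 5 (52.5% of all genes), with a median of 0.58, and 3 members had an unadjusted p under 0.05 (8.94% of all genes). None passed adjustment there (0.0% of all genes). Neither fit paired libraries of the same number, whose deviations correlated between treatments at 0.752 to 0.838, with -0.113 for Eμ-TCL1;p53R172H/+ replicate 3. A replicate block rests only on numbers present in both tables: Eμ-TCL1 replicates 3 and 4 and Eμ-TCL1;p53R172H/+ replicates 1, 3, 4 and 5. The libraries numbered 3 in the latter genotype differed in sex between the tables. With this block, 29 members were above 0 and 7 below, with a median of 0.43 (-0.03 over all genes). There 3 members had an unadjusted p under 0.05 in limma (5.05% of all genes), and no gene passed adjustment. Ibrutinib was not tested against DMSO within a genotype, because each table was scaled by itself. Percentiles within a library are free of that scaling, though equal numbers are not known to be the same animal. The median member stood at 44.0 and 41.4 in Eμ-TCL1 replicate 3 (DMSO and ibrutinib), 54.5 and 54.4 in replicate 4, and 82.0 and 77.9, 42.3 and 48.4, 38.1 and 39.0, and 42.4 and 42.3 in Eμ-TCL1;p53R172H/+ replicates 1, 3, 4 and 5. Per kilobase of exon, Gbp2 was the highest member in ibrutinib at a median of 21.3 and second in DMSO at 21.6, and Ifi203 followed at 17.6 and 20.1. These medians are over all libraries of a table, so the mix of genotypes enters them.

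Genes upstream and beside the members were read from 5 further lists. Of the interferon genes, Ifng (interferon gamma) was read in DMSO, at 1.3 and 1.6 in T/NK-rich Eμ-TCL1;p53R172H/+ replicates 1 and 2 and at 0.1 to 0.4 in the other 6 libraries. Of 19 receptor and JAK-STAT genes, none passed the threshold in either table, with all libraries or with the B-cell-rich ones. Those with the lowest p in DMSO were the receptor chain Ifngr2 (65.8 ± 31.5, SD, n = 3, against 24.5 ± 19.3, SD, n = 5, with mutant p53) and the phosphatase Ptpn2 (44.9 ± 7.94 and 76.2 ± 32.3). Ifngr2 was at 3.9 and 2.9 in T/NK-rich replicates 1 and 2, and in the B-cell-rich libraries it was at 36.5, 39.9 and 39.3 against 58.7 and 38.5. Ptpn2 was highest in the T/NK-rich libraries, at 81.3 and 128.2, with 70.8, 55.5 and 45 against 50.4 and 48.5 in the B-cell-rich ones. In ibrutinib the lowest p-values were those of the phosphatase Ptpn1 (108.1 ± 25.7, SD, n = 3, and 66.7 ± 17.4, SD, n = 4) and the receptor chain Ifngr1 (135.9 ± 60.5 and 432.4 ± 317.2). Ifngr1 was at 894.7 in T/NK-rich replicate 1, and in the B-cell-rich libraries it was at 384.0, 219.3 and 231.7 against 66.8 and 161.5. In those libraries Ptpn1 was at 54.9, 61.0 and 92.6 against 99.8 and 87.6, which overlapped.

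Of 19 nucleic acid sensing genes, 2 were above all other libraries in both T/NK-rich DMSO libraries (10.5%, against 18.0% of all genes) and 8 were below (42.1%, against 13.6% of all genes). None passed the threshold in either table, with all libraries or with the B-cell-rich ones. Tlr7, a receptor for single-stranded RNA, had the lowest adjusted p with all libraries, in ibrutinib, at 9.8, 9.4, 12.5 and 6.3 in Eμ-TCL1;p53R172H/+ and 33.9, 25.7 and 30 in Eμ-TCL1, with no overlap (log2 change -1.58, SE 0.25, adjusted p = 0.165, limma). In the B-cell-rich libraries its log2 change was -1.51 (SE 0.30). In DMSO its ranges overlapped, from 14.7 to 80.3 and from 62.0 to 78.1. The signalling adaptor Traf6 was 51.5 ± 5.29 (SD, n = 3) and 79.9 ± 10.5 (SD, n = 5) in DMSO and 55.2 ± 5.32 and 75.2 ± 7.43 (n = 4) in ibrutinib, with adjusted p = 0.493 and 0.343 (limma), and its log2 changes of 0.62 and 0.44 were 0.60 and 0.41 in the B-cell-rich libraries. The kinase Irak4 was lower in Eμ-TCL1;p53R172H/+ in DMSO, at 34.9 ± 7.11 against 52.1 ± 3.28, also short of the threshold (adjusted p = 0.558, limma), and its log2 change of -0.58 was -0.72 in the B-cell-rich libraries.

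Both T/NK-rich DMSO libraries were above all others in 24 of 43 further type I interferon-induced genes (55.8%) and in 15 of 25 interferon gamma-induced genes (60.0%), against 18.0% of all genes. The median ratios were 2.03 and 3.72, against 1.0 over all genes. In the B-cell-rich DMSO libraries, 40 of the 43 and 22 of the 25 were lower in Eμ-TCL1;p53R172H/+, against 49.8% of all genes. Their median log2 changes were -0.66 and -0.94 (0.00 over all genes). In the B-cell-rich ibrutinib libraries, 32 of 42 type I and 14 of 26 interferon gamma-induced genes were lower, against 51.3% of all genes. Median log2 changes there were -0.43 and -0.11 (-0.01 over all genes). None passed the threshold in either table, with all libraries or with the B-cell-rich ones. In DMSO the lowest p-values with all libraries were those of the exonuclease Isg20, the RNA editor Adar, Ciita, the activator of MHC class II genes, and Gbp11. Isg20 was at 51.9 in myeloid-rich Eμ-TCL1 replicate 2 and at 2.7 and 2.6 in the T/NK-rich libraries, and in the B-cell-rich libraries at 6.5, 6.5 and 8.0 against 11 and 10.4. Adar was at 262.7 and 246.5 in the T/NK-rich libraries and at 97.3 in the myeloid-rich one, and the B-cell-rich libraries overlapped, at 137.8, 129.6 and 156.8 against 151.7 and 153.6. Ciita was at 13.9 and 9.2 in the T/NK-rich libraries and at 71.6 in the myeloid-rich one, with 187.5, 178.9 and 210.7 against 217.2 and 214.2 in the B-cell-rich ones. Gbp11 was at 1.1 and 1.3 in the T/NK-rich libraries and listed at 0.0 in the other 6.

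In ibrutinib they were Tor3a, Slfn1, Ciita and Iigp1. Tor3a, an interferon-induced ATPase, was at 14.4, 11.7, 14.2 and 20.1 in Eμ-TCL1;p53R172H/+ and at 18.8, 31.2 and 26.9 in Eμ-TCL1, where replicate 1, the myeloid-rich library, lay inside the range of the other genotype. Slfn1 was at 293.0 in T/NK-rich replicate 1, at 98.7, 42.7 and 57.7 in the rest of Eμ-TCL1;p53R172H/+ and at 40.2, 13.0 and 42.8 in Eμ-TCL1. Ciita was at 3.9 in T/NK-rich replicate 1, at 34.9, 80.9 and 81.5 in replicates 3, 4 and 5 and at 59.1, 150.4 and 91.3 in Eμ-TCL1. Iigp1, a GTPase induced by interferon gamma, was at 13.6, 15.3, 4.7 and 4.0 in Eμ-TCL1;p53R172H/+ and at 1.0, 1.2 and 1.1 in Eμ-TCL1, without overlap (log2 change 2.11, SE 0.48, adjusted p = 0.222, limma), and its log2 change was 1.85 (SE 0.56) in the B-cell-rich libraries. T-cell markers were between 675.1 and 2051 in Eμ-TCL1;p53R172H/+ and between 219.8 and 659.2 in Eμ-TCL1 in this table.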

How the data were processed

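Per the labels, malignant B-cells of 15 cultures were sequenced as RNA. The authors aligned reads with TopHat2 2.0.12, counted them per gene with HTSeq on GRCm38, removed genes under a CPM minimum and scaled the rest in edgeR. Each deposited signal value is a CPM on an effective library size, which the authors set separately in each of 2 tables, rounded to 0.1. Whole reads could not be recovered, so depth and counting error cannot be given; only the 15 columns matched to samples were used. The interferon-stimulated genes and all other lists were chosen with earlier results of these data known. Whether libraries are separate animals is not stated in the labels, so p-values measure the spread between libraries, which may be technical.

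For each table, limma 3.58.1 (R 4.3.3, trended eBayes) compared genotypes on log2(value + 1), over all genes, with Benjamini-Hochberg adjustment at 0.05, and tested the interaction over all 15 libraries for genes in both tables. The test was tried on simulated data. Libraries were called poor in B-cell transcripts where 4 B-cell markers summed to under 0.25 of the table's median, and B-cell-rich libraries exclude these and the library highest in myeloid markers of each table. Named members are Isg15, Irf7, Stat2, Ifit1, Ifit3, Oasl2, Mx1, Usp18, Rsad2, Zbp1, Bst2, Gbp2, Mnda, Ifi203, Ifi204 and Ifi205, the 3 lowest p per direction and comparison, the 2 lowest interaction p and the 4 widest ranges per table; from other lists, the lowest p per direction. Coordinates and exon lengths are from GENCODE M21 (GRCm38). Alternatives were pseudocounts of 0.1 and 5, quantile normalization, a minimum mean of 5, a replicate block, sample quality weights, each library left out, libraries poor in B-cell transcripts or highest in myeloid markers left out and, chosen after seeing the data, both left out. Figures were drawn with matplotlib 3.10.9. Some items are not reported here.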

Additional observations from a re-analysis of the deposited data

Results flagged for a closer look

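Outliers were sought in the Eμ-TCL1;p53R172H/+ groups with Dixon's ratio at the 95% level, over 87 sets of values, and 19 were flagged. Chance flags about 1 in 20 of independent sets. These sets share the same libraries, so that rate is no measure for the 19. In ibrutinib, 15 of the 19 were members in which replicate 1 stood far above replicates 3, 4 and 5. These were Ifit3 (95.6), Irf7 (54.6), Irf9 (158.7), Oas2 (8.8), Oasl1 (27.0), Mx1 (15.8), Usp18 (44.2), Ifi35 (42.7), Ddx58 (123.5), Dhx58 (17.0), Bst2 (23.5), Rtp4 (40.2), Xaf1 (35.6), Zbp1 (86.5) and Cmpk2 (9.8). The B-cell marker sum of that library was 70.2, against 628.7 to 1704 in the rest of its group. In DMSO, Ifi44 and Ifi205 were at 0.2 in replicate 3 and 0.0 in the 4 others, a difference of 2 rounding steps. The plasmacytoid dendritic cell marker sum was high in replicate 4, at 150.9 in DMSO and 39.1 in ibrutinib. Most of it came from 1 gene, Ccr9 (129.8 and 26.1), while Siglech, another of these markers, was at 6.0 and 0.4. The members' median percentile in these libraries was 38.1 and 39.0, the lowest of each table's Eμ-TCL1;p53R172H/+ group.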

How the results depend on the processing

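With the libraries poor in B-cell transcripts left out (Eμ-TCL1 replicate 2 and Eμ-TCL1;p53R172H/+ replicates 1 and 2 in DMSO, Eμ-TCL1;p53R172H/+ replicate 1 in ibrutinib), 12 genes passed in DMSO and 32 members were lower in Eμ-TCL1;p53R172H/+ (27 in ibrutinib, 7 for the interaction), with a DMSO median of -1.01. Log2 changes that turned in DMSO were Ifi204 (0.039), Oasl1 (-0.29), Zbp1 (-1.12), Ifit1 (-1.32), Ifit3 (-1.84), Irf7 (-0.95) and Rsad2 (0.44), and Gbp2 in ibrutinib (-0.33) and the Ddx58 interaction (0.13). In DMSO the B-cell-rich libraries are the same set, with the same values; in ibrutinib they gave 24 lower members, Gbp2 -1.27 and Rsad2 1.07, and 5 lower for the interaction. Without the library highest in myeloid markers, 61 genes passed in DMSO, 1 of them a member (Mnda, -3.25, adjusted p = 0.0027, limma), and 24 in ibrutinib, with Rsad2 at 1.35 and 1.30 and Gbp2 in ibrutinib at -0.93. Sample quality weights gave 803 genes in DMSO, with 33 lower members and 2 past the threshold (Mnda and Gbp3), 28 in ibrutinib with 22 lower members, and 9 lower for the interaction; turned were Oasl1 (-0.21), Zbp1 (-0.72), Ifit1 (-0.80), Ifit3 (-1.45), Irf7 (-0.82) and Rsad2 (0.81) in DMSO and Gbp2 (-0.87) and Rsad2 (0.72) in ibrutinib. A pseudocount of 5 gave 6 genes in DMSO and Gbp2 at -0.040 in ibrutinib, and a mean of at least 5 left 8 lower members in ibrutinib. The cause was not tested, beyond the smaller number of libraries or genes.

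Leaving out each library, genes past the threshold ran from 0 (without Eμ-TCL1 replicate 3) to 61 (without Eμ-TCL1 replicate 2) in DMSO and from 0 to 24 (without Eμ-TCL1 replicate 1) in ibrutinib, and members past it from 0 to 1 in DMSO. Lower members ran from 10 to 27 (without Eμ-TCL1;p53R172H/+ replicate 2) in DMSO, from 13 to 27 (without Eμ-TCL1;p53R172H/+ replicate 1) in ibrutinib, and from 7 to 30 for the interaction. In DMSO, Ifit1 ran from -0.30 to 0.86, Ifit3 from -0.025 to 1.68, Gbp2 from -1.70 to 0.29 and Rsad2 from -1.32 to 1.35. In ibrutinib, Gbp2 ran from -0.93 to 0.55, Ifi203 from -1.12 to 0.24 and Rsad2 from -1.17 to 1.30, and the Ddx58 interaction from -0.98 to 0.056.

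The replicate numbers are shared between groups but were not taken as pairs: correlations of same-numbered libraries' deviations were 0.192, 0.284 and 0.0472 between genotypes in DMSO (replicates 2, 3 and 4) and -0.0459, -0.198 and -0.175 in ibrutinib (replicates 1, 3 and 4), and between treatments from 0.752 to 0.838 but -0.113 for Eμ-TCL1;p53R172H/+ replicate 3. The replicate block draws only on numbers present in both genotypes (replicates 2, 3 and 4 in DMSO) or, for the interaction, in both tables. With it, 0 genes passed in DMSO (limma) and 19 members were lower there. For the interaction, 7 members were lower and the median was 0.43. There 3 members had an unadjusted p under 0.05 (limma), against 5.05% of all genes. Of the other values recomputed, 410 log2 changes kept their direction and side of the threshold. A further 190 counts and medians stayed within the margin set for them, which did not require the same direction. Among these, the members' DMSO median was 0.06 in the main fit and -0.71 with sample quality weights. In ibrutinib it was 0.11 in the main fit and -0.31 with the library poor in B-cell transcripts left out. Sequencing depth is unknown, so no limit from counting can be given, and values are rounded to 0.1, which bounds what can be said of Ifi44, Ifi205 and Mnda.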
